A study of Mus musculus with 8 samples.

Results

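The genes described here are 10 that are commonly read as marks of monocyte-derived and lipid-associated macrophages in liver, namely Gpnmb, Trem2, Spp1, Cd9, Itgax, Ccr2, Cx3cr1, Lgals3, Mmp12 and Ly6c2. All 10 were found by symbol among the 25010 genes of the RNA-Seq table. They were chosen by name once the difference between LXRDKO and WT livers in these data was known, so their values in that contrast are a description and no test of them is given. The study asked how gene expression in mouse liver changes when both Liver X receptors are lost. RNA-Seq was done on the left lobe of the liver of 2 wild-type (WT) mice and 2 LXRDKO mice, with 1 library per mouse. In LXRDKO mice the genes Nr1h3 (LXRα) and Nr1h2 (LXRβ) are deleted in the whole body, so macrophages, hepatocytes and all other cells of the liver carry the deletion. All 4 mice were on the C57BL/6 background, were 8 wk old and had fasted for 4 to 6 h, and no other allele or agent is named for either group.

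Values are normalized counts, that is, reads on a gene divided by a size factor for the library. Each liver gave from 55772659 to 72842744 reads on genes, spread over 21716 to 22721 genes with a read. In the sentences that follow, replicate 1 stands before replicate 2. Nr1h3 had 5785 and 5322 normalized counts in WT liver and 1712 and 1826 in LXRDKO liver. Nr1h2 had 2987 and 3110 in WT and 925 and 1003 in LXRDKO. Both fell, by 1.65 and 1.66 on the log2 scale, with adjusted P = 0.0147 for each in limma. The reads left on both genes are counted over the whole gene, and whether they cover the deleted part is not known here. All 14 hepatocyte markers were measured in these livers, each with a mean over 10 normalized counts. Log2 differences are LXRDKO minus WT, on the log2(normalized count + 1) scale, which understates the change of low genes. Where a DESeq2 P value stands beside a log2 difference, the difference is still on this scale.

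The liver holds resident macrophages, the Kupffer cells, which settle before birth and maintain themselves. Circulating monocytes that carry the chemokine receptor CCR2 can enter the organ and become macrophages. In fatty or injured tissue some macrophages take up lipid and express a shared set of genes that includes Trem2, Gpnmb, Spp1 and Cd9, and these are called lipid-associated macrophages. LXRs are oxysterol receptors that act in macrophages as well as in hepatocytes, and LXRα takes part in Kupffer cell identity. Several of the 10 genes are not confined to macrophages. Spp1 is also made by bile duct cells, Itgax is also the classical dendritic cell integrin, and Cd9 is found on many cells. Since RNA came from whole liver, more cells of a type and more RNA per cell cannot be told apart.

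In LXRDKO liver, 8 of the 10 genes had both livers above both WT livers (Gpnmb, Cx3cr1, Trem2, Itgax, Mmp12, Ccr2, Spp1 and Lgals3). Ly6c2 had both LXRDKO livers below both WT livers, and Cd9 overlapped between the genotypes. The log2 differences ran from −0.68 for Ly6c2 to 5.13 for Gpnmb, with a median of 1.11. Over the 15578 genes tested, those whose normalized counts averaged 10 or more, the median was −0.0046. Of those genes, 21.7% had both LXRDKO livers higher than both WT livers and 23.0% had them lower. Of the 10 genes 9 passed this filter, all but Ly6c2. Nothing is read from the counts over the 10 genes, since the same contrast chose the genes.

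**Figure D1:**
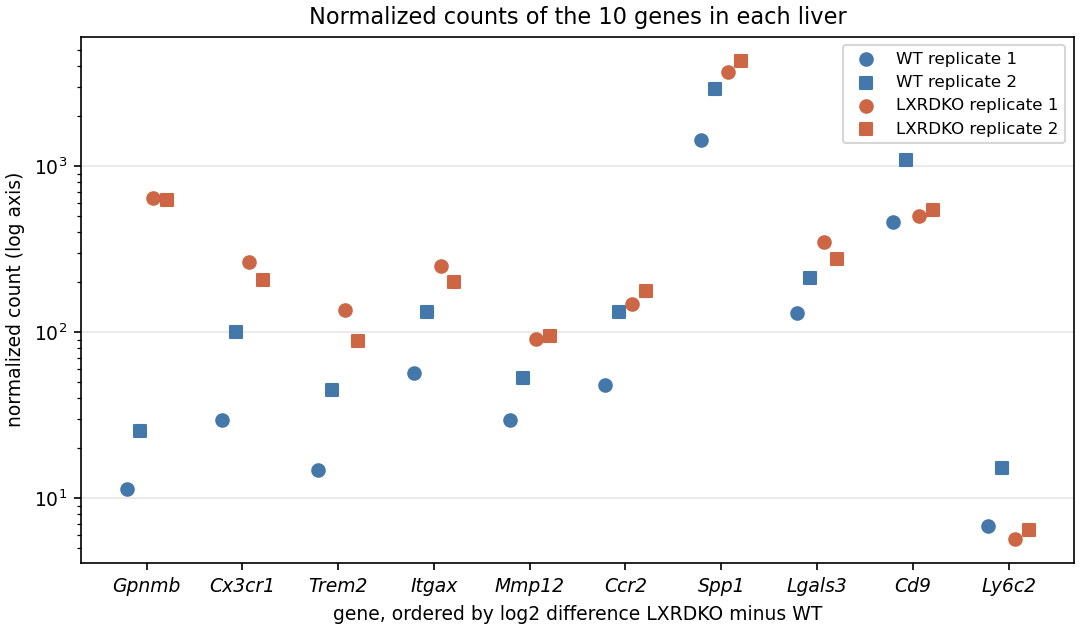
Normalized count (y axis, log scale) of each of the 10 genes in each liver, with genes on the x axis ordered by the log2 difference between LXRDKO and WT. Each point is 1 liver. Gpnmb stands apart from the other genes by the distance between its WT livers (11.4 and 25.5) and its LXRDKO livers (644 and 622), and WT replicate 1 lies below WT replicate 2 for all 10 genes.

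Gpnmb encodes a transmembrane glycoprotein of lysosome-rich cells, among them macrophages, melanocytes and osteoclasts, and is known as a target of the MiT/TFE factors that govern lysosome genes. It lies on the plus strand of chromosome 6 from 49036546 to 49070929 (GRCm38, that is, mm10). Gpnmb had 11.4 and 25.5 normalized counts in WT liver and 644 and 622 in LXRDKO liver. In reads these are 10 and 30 against 679 and 580, so WT liver was near the lower end of what was counted and LXRDKO liver well above it. The group means were 18.4 ± 9.94 and 633 ± 16.1 (SD, n = 2 each), a ratio of 34.3. Its log2 difference of 5.13 ranked 4 among the 15578 genes tested, counted from the highest. On the log2 scale, Gpnmb was the 1 gene of the 10 for which the nearest livers of the genotypes lay farther apart than the livers within either genotype.

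The bases upstream of Gpnmb and Trem2, the genes with the highest log2 differences whose upstream window holds no annotated exon, are shown because the factors known for macrophage genes act near such start sites. Each is the stretch of 250 bases before the RefSeq start site in GRCm38.p6, on the plus strand, at chr6:49036268-49036517 for Gpnmb and chr17:48346151-48346400 for Trem2. Capitals mark matches, on either strand, to GAGGAAG (the core bound by PU.1, the factor that directs macrophage genes) or AGGTCA (the core bound by nuclear receptors). Matches to TCACGTG or TCATGTG (MiT/TFE factors) and to TGAGTCA (AP-1) would also be in capitals.
Gpnmb: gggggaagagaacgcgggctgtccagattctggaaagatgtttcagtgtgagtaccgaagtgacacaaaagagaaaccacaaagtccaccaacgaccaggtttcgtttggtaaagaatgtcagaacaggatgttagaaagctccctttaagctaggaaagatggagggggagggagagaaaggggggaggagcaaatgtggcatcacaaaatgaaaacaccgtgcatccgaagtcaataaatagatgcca
Trem2: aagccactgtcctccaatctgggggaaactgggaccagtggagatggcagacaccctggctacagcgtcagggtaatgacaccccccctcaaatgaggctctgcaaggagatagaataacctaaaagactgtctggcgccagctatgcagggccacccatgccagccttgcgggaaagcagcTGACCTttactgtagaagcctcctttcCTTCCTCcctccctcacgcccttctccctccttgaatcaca
The Gpnmb window held no match to any of these letters. In the Trem2 window, the reverse complement of AGGTCA starts 68 bases upstream of the start site and that of GAGGAAG starts 41 bases upstream.

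Trem2 encodes a lipid-sensing receptor of macrophages and microglia. The gene lies on the plus strand of chromosome 17 from 48346401 to 48354147 and showed 14.8 and 45.0 normalized counts in WT liver and 137 and 87.9 in LXRDKO liver. The livers did not overlap, and the means differed 3.75-fold, with a log2 difference of 2.04 that ranked 85. TREM2 signals through the adaptor DAP12, encoded by Tyrobp, which had 328 and 418 normalized counts in WT liver and 622 and 341 in LXRDKO. Tyrobp thus overlapped between genotypes, with a log2 difference of 0.31 (SE 0.31, adjusted P = 0.737, limma). Syk, the kinase downstream of DAP12, had 235 and 342 against 707 and 340, a log2 difference of 0.79 that was not called (adjusted P = 0.447, limma). Apoe, a lipoprotein ligand of TREM2 made mainly by hepatocytes, differed by −0.04 (adjusted P = 0.980, limma).

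Cx3cr1 encodes the fractalkine receptor, a mark of patrolling monocytes and several tissue macrophages. It had 29.7 and 100 normalized counts in WT liver and 265 and 206 in LXRDKO liver. Both LXRDKO livers were above both WT livers, but WT replicate 2 stood closer to the LXRDKO livers on the log scale than to WT replicate 1. The means differed 3.63-fold and the log2 difference was 2.07, rank 80. The annotation gives Cx3cr1 a span on the minus strand of chromosome 9 from 119901616 to 120069879, which also covers Gorasp1, Csrnp1 and Xirp1 on the same strand. Of the words of 50 bases in its transcripts, as long as 1 read, 0.269% also occur in another gene. Fractalkine itself, Cx3cl1, had 44.5 and 67.9 normalized counts in WT liver and 66.4 and 83.6 in LXRDKO, a log2 difference of 0.43 (adjusted P = 0.643, limma).

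Ccr2 encodes the receptor by which inflammatory monocytes leave the marrow and enter tissue. The gene lies on chromosome 9 from 124101950 to 124113557 and showed 47.9 and 132 normalized counts in WT liver and 147 and 178 in LXRDKO liver. The nearest livers of the 2 genotypes were thus closer than the WT livers were to each other. The log2 difference of 1.02 (rank 476) became 0.30 without WT replicate 1 and 1.74 without WT replicate 2. Its main ligand Ccl2 had 24.0 and 56.9 normalized counts in WT liver and 38.9 and 70.8 in LXRDKO, a log2 difference of 0.49 that was not called (adjusted P = 0.757, limma). The other CCR2 ligands measured, Ccl7, Ccl8 and Ccl12, stayed below the filter, with at most 11.0 normalized counts in any liver.

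Itgax encodes CD11c, an integrin chain of dendritic cells and of macrophages in lipid-laden tissue. It lies on chromosome 7 from 128129547 to 128150657 and had 57.0 and 132 normalized counts in WT liver and 249 and 200.5 in LXRDKO liver. The LXRDKO livers lay above, with means 2.38-fold apart and a log2 difference of 1.35, rank 252. Its partner chain Itgb2 had 275 and 377 against 633 and 360 and overlapped, with a log2 difference of 0.57 (adjusted P = 0.508, limma). Itgax shares 8.88% of its words of 50 bases with its neighbour Itgad, another integrin chain of macrophages, so some reads of the pair may not be told apart. Itgad, named after its values were seen, had 0 reads in both WT livers and 31 and 5 in LXRDKO liver. Its LXRDKO mean was 5.83 times a floor of 3 reads per library. That mean was carried mainly by LXRDKO replicate 1, since LXRDKO replicate 2, with 5 reads, was near the floor.

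Cd9 encodes a tetraspanin, a membrane organizer, that is used with Trem2 to sort lipid-associated macrophages. The gene lies on chromosome 6 from 125460266 to 125494791 and showed 457 and 1086 normalized counts in WT liver and 498 and 541 in LXRDKO liver. Both LXRDKO values fell between the WT values, so Cd9 showed no difference beyond the spread between WT livers. Its log2 difference of −0.44 became −1.06 without WT replicate 1 and 0.18 without WT replicate 2. Among the membrane partners of CD9, Cd81 differed by 0.11 (adjusted P = 0.773, limma). Cd63, a lysosomal tetraspanin, had 51.3 and 95.9 normalized counts in WT liver and 152 and 188 in LXRDKO. Its log2 difference of 1.25 was not called (adjusted P = 0.242 in limma and 0.0734 in DESeq2).

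Among the secreted products, Spp1 encodes osteopontin, a ligand of integrins and CD44. It lies on chromosome 5 from 104435118 to 104441050 and had by far the most counts of the 10 genes, with 1433 and 2907 in the WT livers and 3658 and 4300 in LXRDKO liver. The livers did not overlap, the means differed 1.83-fold, and the log2 difference of 0.96 became 0.45 without WT replicate 1 and 1.47 without WT replicate 2. Of its words of 50 bases 11.6% also occur in Gm42793, a transcript on the same strand that had at most 13.9 normalized counts. The osteopontin receptor gene Cd44 had 340 and 451 normalized counts in WT liver and 308 and 209 in LXRDKO, a log2 difference of −0.62 (adjusted P = 0.376, limma). Itgb3, a chain of the αvβ3 integrin that binds osteopontin, had 176 and 227 against 335 and 384. DESeq2 called Itgb3 higher (adjusted P = 0.0369) and limma did not (log2 difference 0.84, SE 0.20, adjusted P = 0.187).

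Lgals3 encodes galectin-3, a carbohydrate-binding lectin that activated macrophages release. On chromosome 14 from 47367751 to 47386160, it had 130 and 211 normalized counts in WT liver and 349 and 277 in LXRDKO liver. Its livers did not overlap, with means 1.83-fold apart and a log2 difference of 0.90, rank 581. Lgals3bp, which encodes a galectin-3 binding protein, differed by −0.28 (adjusted P = 0.457, limma). Mmp12 encodes macrophage elastase, a protease that degrades elastin. This gene lies on chromosome 9 from 7344381 to 7369499 and showed 29.7 and 52.6 normalized counts in WT liver and 91.1 and 94.3 in LXRDKO liver. The LXRDKO livers were nearly equal and above both WT livers, with means 2.25-fold apart and a log2 difference of 1.21, rank 326. Timp1, an inhibitor of such proteases, had 3.42 and 22.9 normalized counts in WT liver and 22.8 and 33.2 in LXRDKO and overlapped between genotypes.

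Ly6c2 encodes the surface protein by which classical monocytes are sorted. The gene lies on the minus strand of chromosome 15 from 75108158 to 75111970 and showed 6.84 and 15.3 normalized counts in WT liver and 5.70 and 6.43 in LXRDKO liver. These stand for 6 and 18 reads against 6 and 6, so the lower LXRDKO values rest on few reads. Its log2 difference was −0.68, and leaving out WT replicate 1 or WT replicate 2 gave −1.21 or −0.15. Ly6c2 has a near copy, Ly6c1, which is expressed by endothelial cells, and 30.8% of the words of 50 bases in Ly6c2 also occur there. The first 150 of the 393 coding bases are printed to show how alike the copies are, with the 6 bases that differ in capitals. Both are on the minus strand of chromosome 15, with coding parts from 75108546 to 75111667 for Ly6c2 and from 75045405 to 75048511 for Ly6c1 (GRCm38).
Ly6c2: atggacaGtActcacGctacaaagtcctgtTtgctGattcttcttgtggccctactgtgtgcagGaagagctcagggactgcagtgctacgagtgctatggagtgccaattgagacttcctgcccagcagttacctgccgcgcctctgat
Ly6c1: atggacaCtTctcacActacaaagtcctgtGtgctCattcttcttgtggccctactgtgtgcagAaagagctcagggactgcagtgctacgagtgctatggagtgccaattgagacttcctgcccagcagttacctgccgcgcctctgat
Over the whole coding part, 9 bases differ (97.7% identity), and the longest identical run is 188 bases, longer than a read. How the authors treated reads that match both copies is not given in the sources used here, so the level of Ly6c2 is uncertain. Ly6c1 had at most 5.36 normalized counts in any liver.

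Per length of transcript, the order of the genes differed between genotypes. In normalized counts per kilobase of the longest protein-coding transcript, the WT means ran from 1440 for Spp1 through 628 for Cd9 and 120 for Lgals3 to 4.98 for Gpnmb, the lowest of the 10. Between Lgals3 and Gpnmb lay Trem2 (27.5), Itgax (23.3), Ccr2 (15.7), Cx3cr1 (14.4), Ly6c2 (13.5) and Mmp12 (11.4), and neighbours among these 6 overlapped between the WT livers. In LXRDKO liver the means per kilobase were 2640 for Spp1, 423 for Cd9 and 221 for Lgals3, and Gpnmb came next with 171, above Trem2 with 103. Itgax (55.5) and Cx3cr1 (52.4) overlapped in their livers, as did Ccr2 (28.4) and Mmp12 (25.7). The other neighbours in the LXRDKO order did not overlap, and Ly6c2 was lowest with 7.38.

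The WT livers differed from each other in these genes. All 10 were higher in WT replicate 2 than in WT replicate 1, by 0.70 to 1.72 on the log2 scale, with a median of 1.14. Over all genes tested, 49.5% were higher in WT replicate 2, the median was −0.0027, and the median absolute difference was 0.18. Between the LXRDKO livers 5 of the 10 genes were higher in replicate 2, and the differences ran from −0.63 to 0.27. Without WT replicate 1 the median log2 difference over the 10 genes was 0.66, and it was 1.67 without the other WT liver, against 1.11 with all livers. Without WT replicate 1 Cx3cr1 differed by 1.21, Trem2 by 1.27, Itgax by 0.76 and Lgals3 by 0.55, whereas Gpnmb still differed by 4.58. Other immune genes were also higher in WT replicate 2. This held for 21 of 21 monocyte markers tested (median 0.60), 14 of 16 dendritic cell markers (median 0.80) and 14 of 15 lymphocyte markers (median 0.75). The part of these differences between the WT livers in the values of the 10 genes was not tested.

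**Figure D2:**
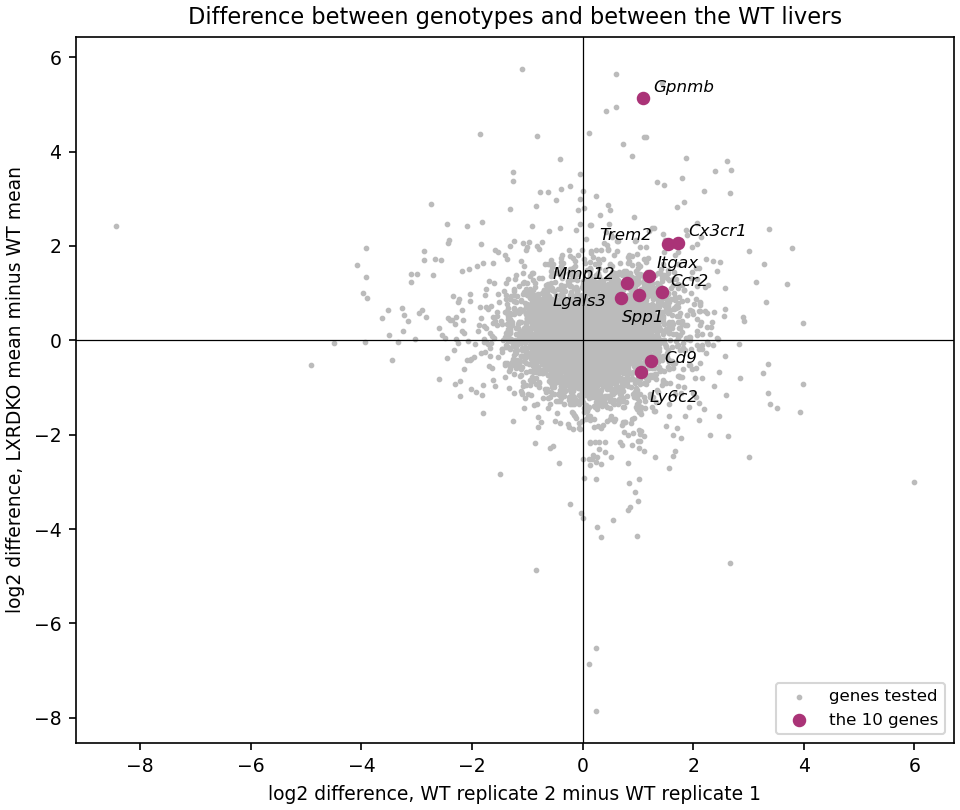
Log2 difference between the WT livers (x axis, WT replicate 2 minus WT replicate 1) against the log2 difference between genotypes (y axis, LXRDKO mean minus WT mean), with 1 point per gene, grey for genes tested and purple for the 10 genes. All 10 lie to the right of 0 on the x axis, between 0.70 and 1.72, and Gpnmb alone among them exceeds 5 on the y axis.

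To set the genes against the amount of macrophage RNA, each was divided by the summed normalized counts of 18 general macrophage genes (among them Csf1r, Adgre1, C1qa, Cd68 and Mertk). That sum was 27751 and 29870 in the WT livers and 32337 and 24189 in LXRDKO liver, so it overlapped between genotypes. Per 1000 of these counts, Gpnmb was at 0.411 and 0.852 in WT and at 19.9 and 25.7 in LXRDKO. Trem2 was at 0.534 and 1.51 against 4.23 and 3.63, and Cx3cr1 at 1.07 and 3.35 against 8.19 and 8.51. Spp1 was at 51.6 and 97.3 against 113 and 178. The same 8 genes as before had both LXRDKO livers above both WT livers on this scale, and the median log2 difference of the 10 was 1.17. The share of all genes on this scale was not computed. Nothing is read from this count, since the contrast that chose the genes also enters it. Cd9 and Ly6c2 overlapped.

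Genes that act with the 10, or mark the cells in which they are expressed, were taken from 14 lists. Of 276 such genes found, 240 passed the filter. limma called 0 of them higher and 7 lower at an adjusted P value of 0.05, against 0.321% called of all genes tested, all 7 being markers of Kupffer or endothelial cells. Without LXRDKO replicate 1 limma called 2 of these genes and without LXRDKO replicate 2 it called 3, against 16 and 14 when WT replicate 1 or WT replicate 2 was left out. DESeq2 on the recovered reads gave 243 of the 276 an adjusted P value and called 12 higher and 19 lower, against 3.59% called of all genes to which it gave one. In the list of ligands, receptors and adaptors of the 10 genes, 21 of 30 were higher and 9 lower (median log2 difference 0.12), and limma called 0 (6 had an unadjusted P value under 0.05). DESeq2 called 2 of the 30, Itgb3 and Il34, both higher. Il34 encodes the second ligand of the receptor CSF1R and had 124 and 116 normalized counts in WT liver and 243 and 241 in LXRDKO (adjusted P = 0.00999, DESeq2, and 0.127, limma). Csf1 and Csf1r differed by 0.06 and 0.05 and were not called.

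Relatives of the 10 genes included several that DESeq2 called and limma did not. Ccr3, the eotaxin receptor, had 11.4 and 11.0 normalized counts in WT liver and 169 and 54.7 in LXRDKO (log2 difference 2.99, adjusted P = 6.8e-05, DESeq2, and 0.131, limma). Ccr1, a chemokine receptor of monocytes that was also the 1 monocyte marker called, had 9.12 and 13.6 against 39.9 and 74.0 (log2 difference 2.19, adjusted P = 0.0225, DESeq2, and 0.151, limma). Proteases in the family of Mmp12 were called as well. Mmp7, matrilysin, had 7.98 and 16.1 normalized counts in WT liver and 75.0 and 74.0 in LXRDKO (log2 difference 2.61, adjusted P = 0.00087, DESeq2, and 0.107, limma). Mmp13, a collagenase, had 9.12 and 18.7 against 54.1 and 68.6 (log2 difference 2.13, adjusted P = 0.0249, DESeq2, and 0.151, limma). In this list of 30 genes, 13 were higher and 17 lower, and the median log2 difference was −0.05. limma called 0, with 9 at an unadjusted P value under 0.05, and DESeq2 called 4 higher and 1, the galectin gene Lgals4, lower.

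The wider programme of lipid-associated macrophages had 27 genes above the filter, of which 17 were higher and 10 lower, and the median log2 difference was 0.07, in a range of −0.01 to 0.25 when 1 liver was left out. limma called 0 (10 had an unadjusted P value under 0.05), and DESeq2 called 0 higher and 4 lower. Those 4 act in lipid handling in many cells, and all 4 had both LXRDKO livers below both WT livers. Fabp5, a fatty acid binding protein, had 667 and 1978 normalized counts in WT liver and 156 and 199 in LXRDKO (log2 difference −2.70, adjusted P = 0.00654, DESeq2). Lpl, lipoprotein lipase, had 1487 and 3667 against 469 and 372 (log2 difference −2.48, adjusted P = 0.00204, DESeq2). Cd36, a fatty acid and oxidized lipoprotein receptor, differed by −1.18 and Lipa, lysosomal acid lipase, by −0.69 (adjusted P = 0.00025 and 0.00059, DESeq2). In limma, none of the 4 passed, the lowest of their adjusted P values being 0.111 for Lpl.

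Of 21 monocyte markers, 17 were higher and 4 lower, and 10 had both LXRDKO livers above both WT livers, against 21.7% of all genes tested. limma called 0 of them (7 had an unadjusted P value under 0.05, against 2068 of all 15578 genes tested) and DESeq2 called 1, Ccr1. Their median log2 difference of 0.58 became 0.08 when WT replicate 1 was left out and 0.21 when LXRDKO replicate 1 was. The summed monocyte markers, 2913 and 3968 normalized counts in WT liver and 5318 and 3960 in LXRDKO, overlapped between genotypes. Among the 26 genes of the MiT/TFE factors and the lysosome, the class of genes known to move with Gpnmb, 14 were higher and 12 lower, with a median of 0.01. No gene of this list was called by limma (5 had an unadjusted P value under 0.05) or by DESeq2. These values come from whole liver, so a change in macrophages alone need not show in them. Its most abundant gene, Lamp1, encoding a lysosomal membrane protein, differed by −0.02 (adjusted P = 0.959, limma).

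**Figure D3:**
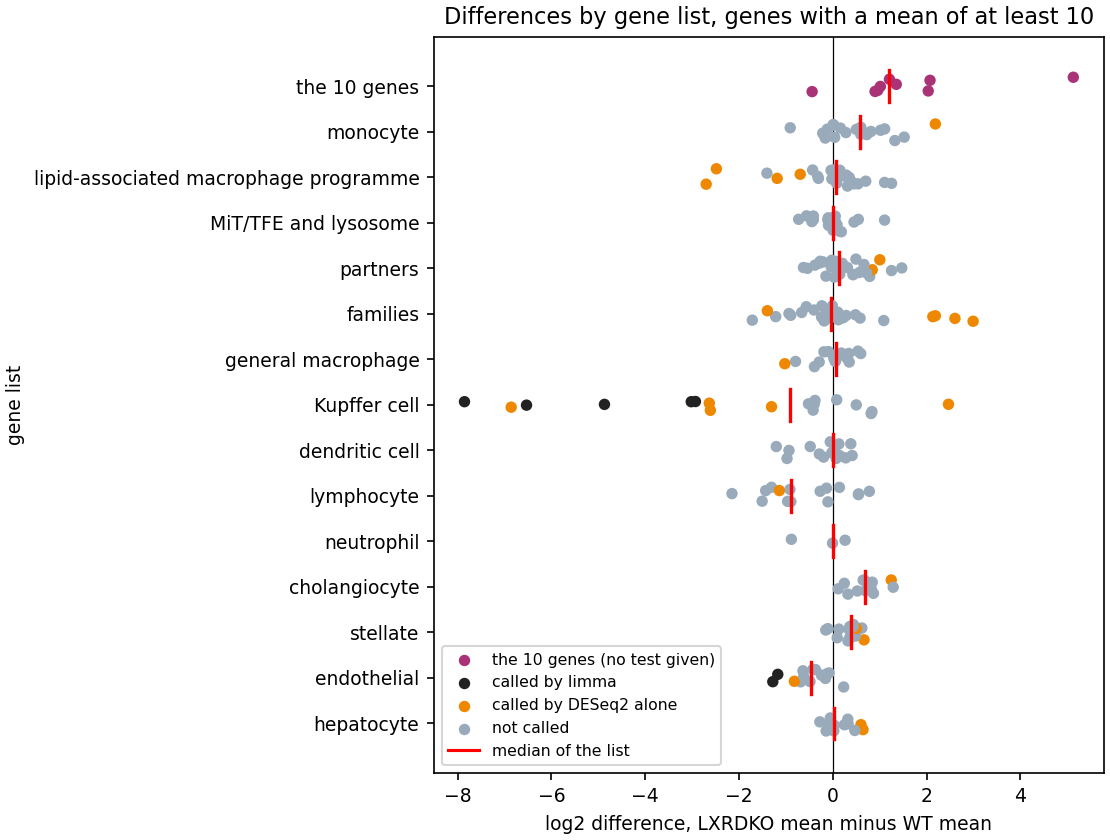
Log2 difference between LXRDKO and WT (x axis) for each gene whose normalized counts averaged 10 or more, by gene list (y axis), with 1 point per gene and a red line at the median of the list. Black points were called by limma and orange points by DESeq2 alone. Of the 10 genes, for which no test is shown, 9 have a value here. The Kupffer cell list holds 5 black points, from −2.93 to −7.85, and the endothelial list holds 2, at −1.17 and −1.28.

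Markers of the resident macrophages were mostly lower. The 18 Kupffer cell markers split into 13 lower and 5 higher (median log2 difference −0.91, range −7.85 to 2.47). The genotypes were separate, with LXRDKO the lower, for 11 of these markers. For 4 others they were separate with LXRDKO the higher, so the list did not move as 1 block. limma called 5 lower and DESeq2 called 9 lower and 1 higher. The genes described next are the 5 called by limma, so no marker that was higher is among them. Cd5l, a secreted macrophage protein, had 2780 and 3293 normalized counts in WT liver and 11.4 and 12.9 in LXRDKO (log2 difference −7.85, SE 0.19, adjusted P = 0.00052, limma). Kcna2, a potassium channel, had 243 and 286 in WT and 1 and 3 reads in LXRDKO, at or under the floor of 3 reads (adjusted P = 0.0239, limma). Cd163, the haemoglobin scavenger receptor, had 939 and 524 against 27.5 and 19.3, and Marco, a scavenger receptor, had 275 and 491 against 47.5 and 41.8 (adjusted P = 0.0239 and 0.0446, limma). Clec4f, the lectin that defines mouse Kupffer cells, fell by 2.93 on the log2 scale (adjusted P = 0.0267, limma). Cd5l and Clec4f also passed without either LXRDKO liver, whereas Cd163 and Marco did not (adjusted P from 0.0793 to 0.199, limma) and Kcna2 did not without LXRDKO replicate 1 (adjusted P = 0.0718, limma). Marco also did not pass with a filter at a mean of 50 or with upper-quartile or library-total scaling (adjusted P from 0.0508 to 0.0586, limma). Without the trend, Cd5l alone of the 5 passed, and the others had adjusted P values from 0.212 to 0.219 in limma. Of 18 general macrophage genes 12 were higher and 6 lower, and limma called 0 (4 had an unadjusted P value under 0.05). All 18 were lower in LXRDKO replicate 2 than in LXRDKO replicate 1, with a median difference of −0.67 on the log2 scale. Their median log2 difference of 0.06 turned to −0.28 without LXRDKO replicate 1 and to −0.13 without WT replicate 1, and leaving out LXRDKO replicate 2 or WT replicate 2 gave 0.42 or 0.21, so its direction rested on single livers. DESeq2 called 1 of these, Mpeg1, encoding a pore-forming protein, which had 4633 and 6256 normalized counts in WT liver and 2660 and 2639 in LXRDKO.

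Among other cells that could carry the 10 genes, 12 of 12 cholangiocyte markers tested had both LXRDKO livers above both WT livers. This held for 21.7% of all genes tested. The median log2 difference of the 12 was 0.69, in a range of 0.12 to 1.29. The median became 0.36 when WT replicate 1 was left out. In limma 0 were called (4 had an unadjusted P value under 0.05) and DESeq2 called 1, the epithelial adhesion gene Epcam, with 74.1 and 115 normalized counts in WT liver and 216 and 224 in LXRDKO (adjusted P = 0.0112). The summed cholangiocyte markers were 2821 and 3082 in WT and 3664 and 3950 in LXRDKO, and none was at 0 in all livers. They moved the same way as Spp1, which bile duct cells also express, and their part in the Spp1 values was not tested. Of 16 stellate cell markers 14 were higher, with a median of 0.40, and DESeq2 called 2, the matrix genes Dcn and Reln, higher (adjusted P = 0.00357 and 0.0320) where limma called 0 (8 had an unadjusted P value under 0.05). Their sum was 29018 and 34867 in WT and 40818 and 43044 in LXRDKO.

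Of 16 dendritic cell markers 8 were higher and 8 lower, with a median of 0.01 that turned to −0.39 when WT replicate 1 was left out, and neither limma (1 unadjusted P value under 0.05) nor DESeq2 called any. Cd74, the invariant chain and the most abundant of them, had 4947 and 8528 normalized counts in WT liver and 8118 and 6389 in LXRDKO. Their sum was 10843 and 19458 against 17304 and 13874, which overlapped between genotypes. Of 15 lymphocyte markers 11 were lower, with a median of −0.89. This median turned to 0.55 with a filter at a mean of 50, which leaves fewer genes, and was −0.44 when WT replicate 2 was left out. DESeq2 called 1 lower, the interleukin-2 receptor chain Il2rb (adjusted P = 0.0280), where limma called 0 (6 had an unadjusted P value under 0.05). Only 3 of 12 neutrophil markers passed the filter, none was called by limma (0 had an unadjusted P value under 0.05) or DESeq2, and the most abundant, Csf3r, had 84.4 and 100 normalized counts in WT liver and 119 and 70.8 in LXRDKO. Of 14 endothelial markers 13 were lower, with a median of −0.45. limma called 2 lower, the vascular growth factor receptor Kdr (log2 difference −1.17, adjusted P = 0.0498) and the junction gene Cdh5 (log2 difference −1.28, adjusted P = 0.0255). Neither passed when an LXRDKO liver was left out (adjusted P from 0.126 to 0.173, limma), and Cdh5 and Kdr did not without the trend (adjusted P = 0.212 and 0.223). Kdr also did not pass with a pseudocount of 0.5, with no filter, with a filter at a mean of 50, or with upper-quartile or library-total scaling (adjusted P from 0.0501 to 0.0622, limma). Of 14 hepatocyte markers 8 were higher and 6 lower, the median was 0.03, and DESeq2 called Hnf4a and Tat higher (adjusted P = 0.0115 and 0.00675) where limma called 0 (2 had an unadjusted P value under 0.05).

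**Figure D4:**
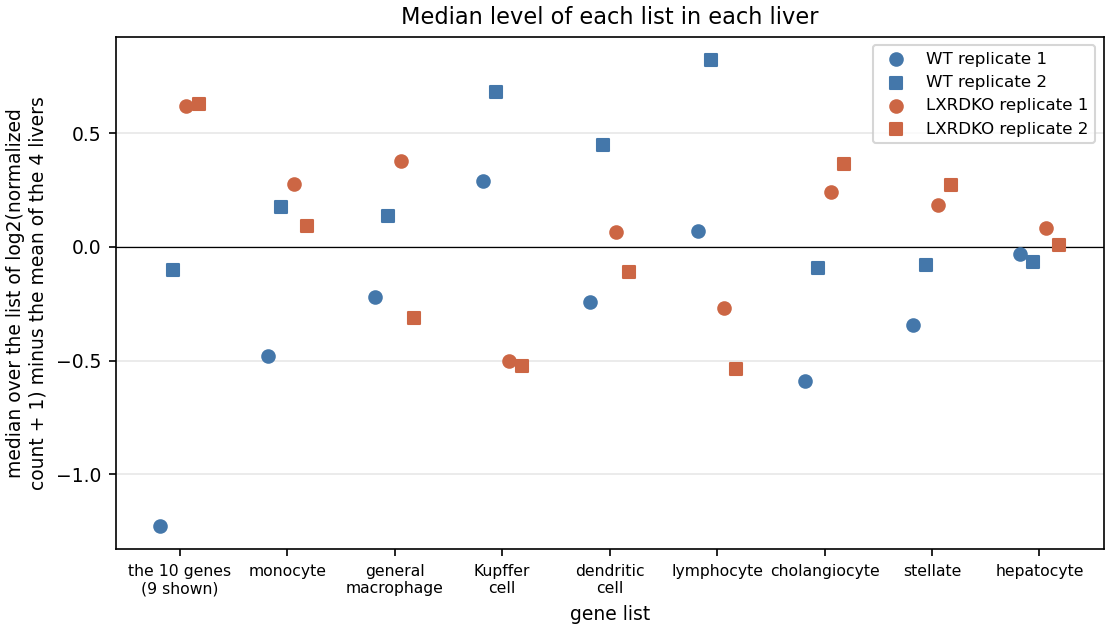
Median level of 9 gene lists in each liver (y axis, log2(normalized count + 1) minus the mean of the 4 livers, median over the genes above the filter), with lists on the x axis and 1 point per liver. The 9 genes of the set that passed the filter lie at −1.23 and −0.10 in the WT livers and at 0.62 and 0.63 in LXRDKO liver. Kupffer cell markers lie higher in WT (0.29 and 0.68) than in LXRDKO (−0.50 and −0.52). In both lists WT replicate 2 lies above WT replicate 1. General macrophage markers overlap between genotypes.

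In the 250 bases upstream of their RefSeq start sites, all 10 genes were searched on both strands for the same letters. GAGGAAG was found for 4 of the 10 (Trem2, Spp1, Mmp12 and Ly6c2), against 12.0% of 27025 genes with such a window. TGAGTCA was found for Itgax and Mmp12, 2 of the 10, against 5.16% of all genes. A match to TCACGTG or TCATGTG was found for 1, Mmp12 at its second start site, against 7.15% of all genes. AGGTCA was found for 2, Trem2 and Mmp12, against 15.8% of all genes. Gpnmb, Cd9, Ccr2, Cx3cr1 and Lgals3 had no match to any of them. No 2 matches in a window overlapped. Such a match is a run of letters, not a measured binding site.

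The 5 genes whose profile over the 4 livers was nearest to that of Gpnmb, by the Euclidean distance between centred log2 values, were 1700007K13Rik, Eda2r, Fam212b, Fam107a and Cdkn1a, at distances from 0.889 to 1.19. Eda2r, a receptor of the tumour necrosis factor family, had 14.8 and 34.0 normalized counts in WT liver and 365 and 589 in LXRDKO. Cdkn1a, encoding the cell cycle inhibitor p21, had 62.7 and 95.9 in WT and 2457 and 6375 in LXRDKO. Fam107a had 11.4 and 17.8 against 806 and 278. This distance counts the size of a difference as well as its shape. The other 9 genes of the set had log2 differences of at most 2.07, against 5.13 for Gpnmb. They could therefore not be among these 5, and nothing is read from their absence.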

How the data were processed

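Liver RNA of 2 WT and 2 LXRDKO mice was sequenced. Per the paper's methods and the submitters' processing notes, polyadenylated RNA was captured with a stranded kit, reads were checked with FastQC and aligned to mm10 with STAR 2.6.0c, and expression was tested with DESeq2. The counting tool and annotation release are not given in the sources used here. The deposited signal was normalized by the authors with DESeq2 and holds read counts divided by 1 size factor per library (0.877 and 1.18 for WT, 1.05 and 0.933 for LXRDKO). All values (100%) came out as whole reads within 0.01 read, so reads were recovered. Between 55772659 and 72842744 reads per liver set the counting error, and the floor of 3 reads covers this error only. The spread between the 2 mice of a genotype is not covered by it. Replicates are separate mice, and the ATAC-Seq samples were not analysed here.

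log2(normalized count + 1) was compared with limma 3.58.1 (empirical Bayes with trend, R 4.3.3) over 15578 genes whose normalized counts averaged 10 or more, with Benjamini-Hochberg adjustment and a threshold of 0.05. As alternatives, the recovered reads were tested with DESeq2 1.42.0 and edgeR 4.0.16. All were run on simulated counts with known changes and the same spread set for every gene. That setting does not cover genes whose livers differ as widely as the WT livers do in the 10 genes. With 2 livers against 2, an exact permutation test cannot give a P value under 0.33. The labels do not state that replicate numbers pair the mice. The 10 genes and all lists were chosen with earlier results of these data known. Genes named are the 10, the called partners and the direct ligand, receptor or adaptor of each, up to 4 genes a list called by limma or otherwise by DESeq2, the most abundant gene where none was called, and the 5 profiles nearest to Gpnmb. Other genes are named where a sentence says so or where they show how a list was made. Positions are from GENCODE M21 and upstream sequences from RefSeq (GRCm38.p6), where all 10 genes matched. Identity of transcripts was counted as shared words of 50 bases.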

Additional observations from a re-analysis of the deposited data

How the results depend on the processing

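The 8 genes with LXRDKO above WT stayed above 0 on the log2 scale under upper-quartile, library-total and macrophage scaling. Pseudocounts of 0.5 and 8 and leaving out each liver in turn could not turn them, since their livers did not overlap. Nothing is read from this, as the same contrast chose the genes. Cd9 turned from −0.44 to 0.18 without WT replicate 2. limma called 50 genes in all. This count was 25 with a filter at a mean of 50, 1 without the trend, 567 with DESeq2, 90 with the replicate number as a block and 138 at a threshold of 0.10. It was 262 without WT replicate 1, 157 without WT replicate 2, 2 without LXRDKO replicate 1 and 8 without LXRDKO replicate 2. Of the 276 companion genes 7 were called, and 1 without the trend, 31 with DESeq2, 12 with the replicate block, 12 at 0.10 and 2 to 16 without 1 liver. Over all genes tested, deviations of same-numbered livers correlated at 0.0031. This single value cannot show whether same-numbered livers share something in a subset of genes. The median of the dendritic cell list turned from 0.01 to −0.39 without WT replicate 1 and was 0.27 without WT replicate 2. That of the lymphocyte list turned from −0.89 to 0.55 with the filter at a mean of 50, which leaves fewer genes. The cause of the other changes was not tested. Depth limits Ly6c2 and the neutrophil markers, which had few reads, and 2 livers per genotype limit every comparison.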
